A study of Mus musculus with 6 samples.

Results

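The mouse zinc finger genes numbered Zfp900 to Zfp999 were followed in whole testes at postnatal day 4, in 3 libraries labelled as conditional knockouts (cKO) for Dis3l2 and 3 labelled wild type (WT). A gene belonged to the group when its identifier mapped to a protein-coding symbol made of Zfp9 and 2 more digits, and 63 of the 54232 genes in the table did so. The pseudogene Zfp939 was left out, and 302 other numbered Zfp genes served for comparison. The members were picked by name, but the number range was proposed, and Zfp963 was set apart, with the differences between these libraries already known. All counts of members below are therefore descriptions, and Zfp963 is given without a test.

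Dis3l2 encodes an exoribonuclease that degrades RNAs with an oligouridine tail, and the series asked which genes differ between cKO and control testes at this age. Both groups were of the strain B6D2F1, a cross of C57BL/6 and DBA/2 mice, and the tissue was the whole testis. The labels used here name neither the Cre line nor the deleted exons of the cKO mice, so the cells in which Dis3l2 was removed are not given. Whether the 3 libraries of a group are from different animals is not stated either, and a p-value here therefore speaks of the spread between libraries, which may be technical in part.

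Most members encode C2H2 zinc finger proteins with a KRAB domain. In this family the zinc fingers read a DNA sequence, often one that belongs to a retrotransposon, and the KRAB domain recruits the corepressor TRIM28, which brings the histone H3 lysine 9 methyltransferase SETDB1 and silences the bound element. Such genes arise by local duplication and sit in arrays of close relatives along a chromosome. Repression of retrotransposons has a particular place in the early male germ line, where DNA methylation is laid down anew. In reading frames translated from GENCODE M21 transcripts, 57 of the 63 members held a KRAB A-box pattern, and the median number of C2H2 fingers was 11 (range 0 to 21).

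The cKO libraries held 26126694, 34708401 and 35390560 counts and the WT libraries 41654998, 43265614 and 35750784 counts. Members took 0.058 to 0.0678% of the counts in cKO libraries and 0.0631 to 0.0663% in WT libraries. Whole-gene counts of Dis3l2 gave no check of the genotype, with 30.6, 31.0 and 33.6 CPM (counts scaled by library size) in cKO and 32.8, 31.0 and 32.1 CPM in WT. One library stood apart: cKO replicate 1 held 263 CPM of olfactory and vomeronasal receptor counts, against 49.0 and 44.6 CPM in the other cKO libraries and 104 to 123 CPM in WT, and it lay at 50.01 on a second principal component on which the other 5 libraries lay between -25.3 and 0.50. Members whose call changed when it was left out are named beside their values. Libraries also differed in their cell markers. Of 20 general germ cell markers 17 fell, with a summed level of 850 to 908 CPM in cKO and 1520 to 1604 CPM in WT, and 4 of 6 macrophage and leukocyte markers rose, with sums of 90.003 to 95.2 CPM in cKO and 66.4 to 72.6 CPM in WT. Sertoli cell markers, the defining genes of the somatic cells of the cords, summed to 4982 to 5859 CPM in cKO and 4876 to 4921 CPM in WT, with 3 of 12 higher and 1 lower. Of other markers, 6 of 10 for undifferentiated spermatogonia and 1 of 6 for stroma and myoid cells fell, and 3 of 6 for Leydig cells and 1 of 5 for endothelium rose. In such bulk samples fewer cells of a type and less RNA per cell cannot be told apart, and the part of these markers in the changes of the members was not tested.

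Of the 63 members, 54 passed the filter on low counts and 9 did not. Zfp965, Zfp966, Zfp967, Zfp968, Zfp969, Zfp973, Zfp987, Zfp935 and Zfp957 had too few counts to test. Of the 53 tested besides Zfp963, 6 fell in cKO, 0 rose and 47 did not pass the threshold (edgeR quasi-likelihood test, Benjamini-Hochberg adjusted p under 0.05 over 20153 genes). Over all genes 8.34% passed, 4.94% as lower and 3.4% as higher in cKO. Among the 302 other numbered Zfp genes 294 were tested, of which 12 fell and 9 rose. Fitted changes are log2 fold changes of cKO over WT, and their median over the 53 members was -0.09, beside 0.01 over all genes tested. Of the 53, 34 were below 0 (64.2%), beside 48.3% of all genes. The cKO and WT libraries did not overlap for 16 of them, with all cKO libraries lower for 11 and higher for 5. Of all genes tested, 28.2% did not overlap (14.6% lower and 13.6% higher). Among the 15298 protein-coding genes tested, 31.5% did not overlap, 6.09% fell and 3.97% rose. At an adjusted p under 0.05, 0 of the 53 members rose in DESeq2 or limma-voom as well. At an unadjusted p under 0.05, 5 more members were lower and 3 higher in edgeR. For 31 of the 47 that did not pass, the 95% interval of the log2 fold change lay within -0.5 and 0.5, and for 42 within -1 and 1. Without cKO replicate 1, 12 members and 1705 of all genes fell, and without cKO replicate 2, WT replicate 1 or WT replicate 2, 3 members fell.

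**Figure D1:**
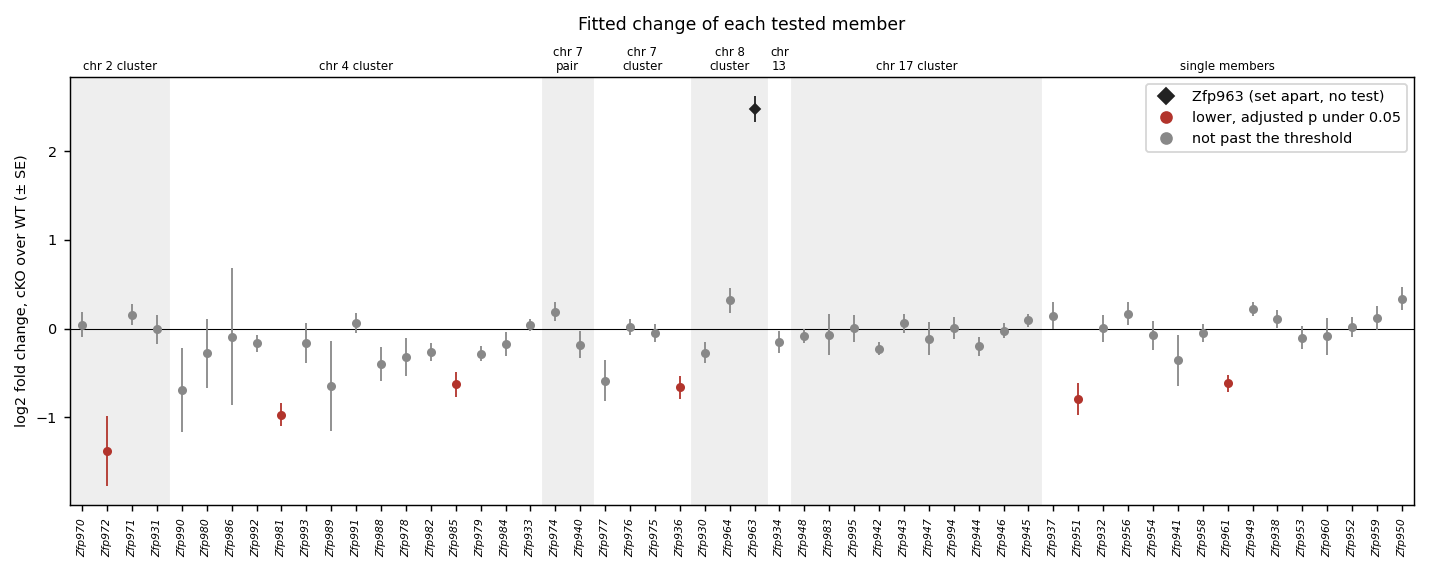
Fitted log2 fold change of cKO over WT for each of the 54 tested members, in chromosome order within clusters, with bars of 1 standard error. Zfp963 stands at 2.48, 6 members in red fell, and the others lie on both sides of 0. Of the tested members, 13 of 15 in the chromosome 4 cluster and 3 of 4 in the chromosome 7 cluster lie below 0.

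Zfp963 (chr8:69741639-69749970, GRCm38, minus strand) is a KRAB zinc finger gene with 7 fingers in its translated reading frame. It had 359, 542 and 553 counts in the cKO libraries, against 103, 142 and 86 counts in the WT libraries. Scaled to depth these were 13.7, 15.8 and 15.9 CPM in cKO and 2.45, 3.27 and 2.40 CPM in WT. All cKO libraries were high and all WT libraries low, with a wide gap between the groups. The fitted log2 fold change was 2.48 (SE 0.14), a fold of 5.57. In CPM per kb of exon it stood at 6.58 ± 0.55 in cKO (SD, n = 3), rank 9 of the 63 members, and at 1.18 ± 0.21 in WT (SD, n = 3), rank 43. A readthrough gene on the same strand, Gm20422, covers 40.8% of its exon bases and was listed at 0 counts in every library. Reads in that stretch belonged to more than 1 gene and were not counted, so both levels of Zfp963 rest on the remaining 1362 of 2299 exon bases. Per kb of exon bases in no other gene on the strand, Zfp963 stood at 11.1 ± 0.92 in cKO, rank 2 of 63 and within the error of the first, Zfp946, and at 1.99 ± 0.36 in WT, rank 34 (CPM, SD, n = 3 each).

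Zfp963 lies in an array with Zfp930 and Zfp964. Zfp964 (chr8:69654479-69666982, plus strand) had 6.29, 6.02 and 4.99 CPM in cKO, against 4.90, 4.397 and 4.52 CPM in WT. Its cKO libraries were all higher by a small margin, and the log2 fold change of 0.32 (SE 0.14) did not pass the threshold (edgeR adjusted p = 0.202). Zfp930 (chr8:69209038-69230536, plus strand) had 15.2, 12.9 and 12.6 CPM in cKO and 14.04, 18.97 and 16.01 CPM in WT, with overlapping groups and a log2 fold change of -0.27 (SE 0.12, edgeR adjusted p = 0.211). Without cKO replicate 1 it fell. The summed level of the array was 34.5 ± 0.89 CPM in cKO and 23.7 ± 2.7 CPM in WT (SD, n = 3 each), and without Zfp963 it was 19.4 ± 2.0 CPM in cKO and 20.9 ± 2.2 CPM in WT.

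The promoters of Zfp963 and Zfp964, taken from RefSeq as 250 bases before to 50 bases after the annotated start, are shown because they share a run that no other gene holds. Capitals mark this run, CCTAGCCAATCAGGGCCT, found in the promoters of 2 of 27025 genes (0.0074%) when both strands were searched. It contains the motif CCAAT, which 40 of the 53 members with a promoter and 41.1% of all genes hold on either strand.

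Zfp963 (chr8:69749913-69750212, GRCm38.p6, minus strand): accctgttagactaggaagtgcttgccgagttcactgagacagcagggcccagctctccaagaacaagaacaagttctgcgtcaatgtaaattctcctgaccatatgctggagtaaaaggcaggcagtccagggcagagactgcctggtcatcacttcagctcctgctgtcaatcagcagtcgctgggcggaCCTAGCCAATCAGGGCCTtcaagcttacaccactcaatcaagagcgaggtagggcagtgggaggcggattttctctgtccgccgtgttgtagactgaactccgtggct

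Zfp964 (chr8:69654306-69654605, GRCm38.p6, plus strand): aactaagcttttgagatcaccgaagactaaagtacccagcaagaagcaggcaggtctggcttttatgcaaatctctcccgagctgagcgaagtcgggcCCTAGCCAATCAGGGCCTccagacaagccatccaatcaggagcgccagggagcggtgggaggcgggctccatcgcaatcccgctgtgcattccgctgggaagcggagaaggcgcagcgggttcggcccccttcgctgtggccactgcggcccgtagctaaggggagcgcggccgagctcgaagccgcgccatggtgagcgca

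The run was chosen because both promoters hold it, so it could not set Zfp963 apart from Zfp964. The fitted changes of the genes were 2.48 and 0.32. The motif GGGCGG, bound by SP1 family factors, was present in Zfp963 and not in Zfp964, and in 18 of 53 member promoters and 38.2% of all. The part of the run or of the motif in these changes was not tested.

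Within 1 Mb of the start of Zfp963, 56 of 62 other protein-coding genes were tested, of which 14 fell and 7 rose. Their median log2 fold change was -0.07. Among all protein-coding genes tested, 6.09% fell and 3.97% rose, so calls in this window were more frequent in both directions. Zinc finger genes next to Zfp963 showed smaller differences than Zfp963 itself. Zfp866 had 47.7, 44.6 and 41.5 CPM in cKO and 50.9, 56.0 and 51.2 CPM in WT (log2 fold change -0.24, edgeR adjusted p = 0.0589). Zfp869 had 18.1, 17.1 and 15.9 CPM in cKO and 16.2, 15.9 and 15.1 CPM in WT (log2 fold change 0.11, edgeR adjusted p = 0.517). Zfp868 had 26.9, 26.5 and 25.5 CPM in cKO and 19.8, 21.4 and 18.6 CPM in WT, without overlap, and rose (log2 fold change 0.40 with an SE of 0.08, edgeR adjusted p = 0.011). The other extreme of the window was Lpl, which encodes lipoprotein lipase, at 28.5, 29.996 and 29.982 CPM in cKO and 177, 179 and 179 CPM in WT.

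**Figure D2:**
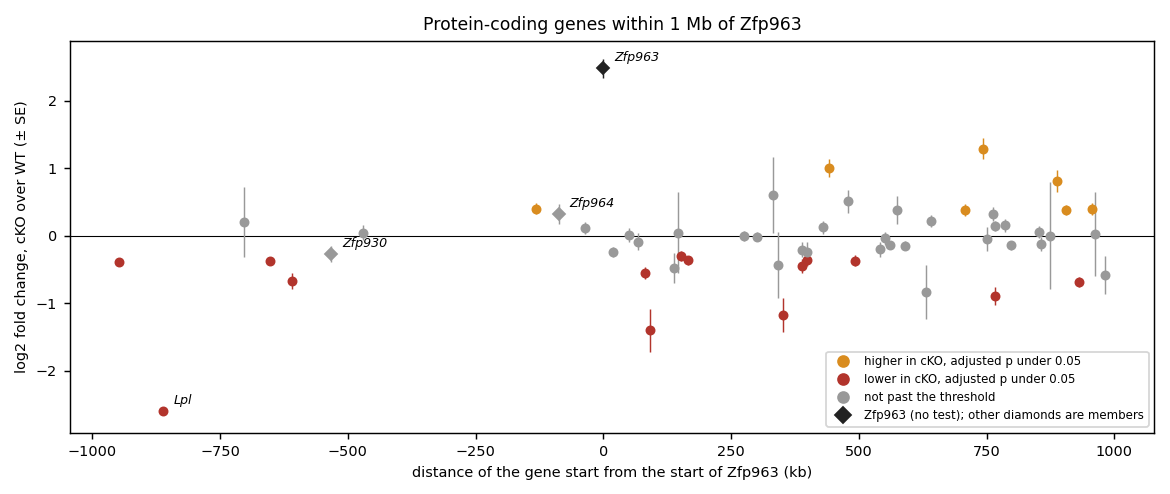
Fitted log2 fold change of cKO over WT, with bars of 1 standard error, of tested protein-coding genes by the distance of their start from that of Zfp963 in kb. Genes past the threshold lie on both sides of 0, from -2.59 for Lpl to 1.29 for Tmem59l, and Zfp963 is above all of them.

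The largest array, on chromosome 4 from 145510759 to 147848366, held 16 members, all with the KRAB pattern. In mice, deletion of this array is known to release retrotransposons that its proteins repress. Of its 15 tested members 2 fell, Zfp981 and Zfp985, and 13 did not pass. Of the 15, 13 were below 0, beside 48.3% of all genes tested, and the median log2 fold change was -0.28. The counts of the 16 members together came to 129.98, 123.4 and 119.2 CPM in cKO, against 144.2, 146.2 and 141.8 CPM in WT. All cKO libraries were lower than all WT libraries in this sum (124.2 ± 5.4 CPM in cKO and 144.1 ± 2.2 CPM in WT, SD, n = 3 each). By member this held for 4 of the 15 tested, and in the other 11 the groups overlapped. Of all genes tested, 14.6% had all cKO libraries lower.

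Zfp981 (chr4:146502027-146539395, plus strand) had 6.51, 6.70 and 5.22 CPM in cKO, against 10.7, 13.05 and 12.3 CPM in WT. The groups did not overlap, and the log2 fold change was -0.97 (SE 0.13, edgeR adjusted p = 0.0008). Zfp985 (chr4:147553277-147585198, plus strand) had 3.81, 4.12 and 3.96 CPM in cKO and 6.76, 5.99 and 5.66 CPM in WT, again without overlap. Its log2 fold change was -0.63 (SE 0.14, edgeR adjusted p = 0.015). Zfp985 no longer passed without cKO replicate 2 (adjusted p = 0.0521), WT replicate 1 (0.0766) or WT replicate 2 (0.0629), all in edgeR.

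Other members of the array showed how far its levels reach. Zfp982, the highest on average at 8.42 ± 0.59 CPM per kb in cKO and 10.1 ± 0.79 CPM per kb in WT (SD, n = 3 each), had 13.5, 11.8 and 12.4 CPM in cKO and 16.2, 15.1 and 13.8 CPM in WT. In cKO its level was within the error of that of Zfp933 (8.25 ± 0.26 CPM per kb, SD, n = 3). Every cKO library was lower than WT in Zfp982, and the log2 fold change of -0.27 (SE 0.10) did not pass (edgeR adjusted p = 0.135). Without cKO replicate 1 it passed (log2 fold change -0.32, edgeR adjusted p = 0.0425). Zfp979 (chr4:147611937-147642513, minus strand) had 19.96, 20.35 and 18.1 CPM in cKO and 23.2, 23.0 and 24.8 CPM in WT, without overlap, and just missed the threshold (log2 fold change -0.28, SE 0.08, edgeR adjusted p = 0.0584), which it passed without cKO replicate 1. Zfp933 (chr4:147822986-147848366, minus strand), at one end of the array, had 35.4, 34.1 and 36.2 CPM in cKO and 32.2, 35.0 and 35.7 CPM in WT, overlapping throughout (log2 fold change 0.04, SE 0.07, edgeR adjusted p = 0.804).

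Few counts and wide errors marked the lowest tested members. Zfp989 had 9, 10 and 7 counts in cKO and 20, 12 and 20 counts in WT. Its log2 fold change was -0.65 (SE 0.51, edgeR adjusted p = 0.503). Zfp990 had 43, 13 and 26 counts in cKO and 72, 80 and 28 counts in WT, so that its groups overlapped (log2 fold change -0.70, SE 0.47, with an edgeR adjusted p of 0.425). Without cKO replicate 1 it passed (log2 fold change -1.37, edgeR adjusted p = 0.0308), and without cKO replicate 2 its log2 fold change was -0.32 (edgeR adjusted p = 0.784). Zfp987, not tested, had 0, 0 and 5 counts in cKO and 7, 12 and 1 counts in WT. Of 6 other protein-coding genes tested inside the array, Zfp534 fell (log2 fold change -0.67 with an SE of 0.16, edgeR adjusted p = 0.0219) and the other 5 did not pass.

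**Figure D3:**
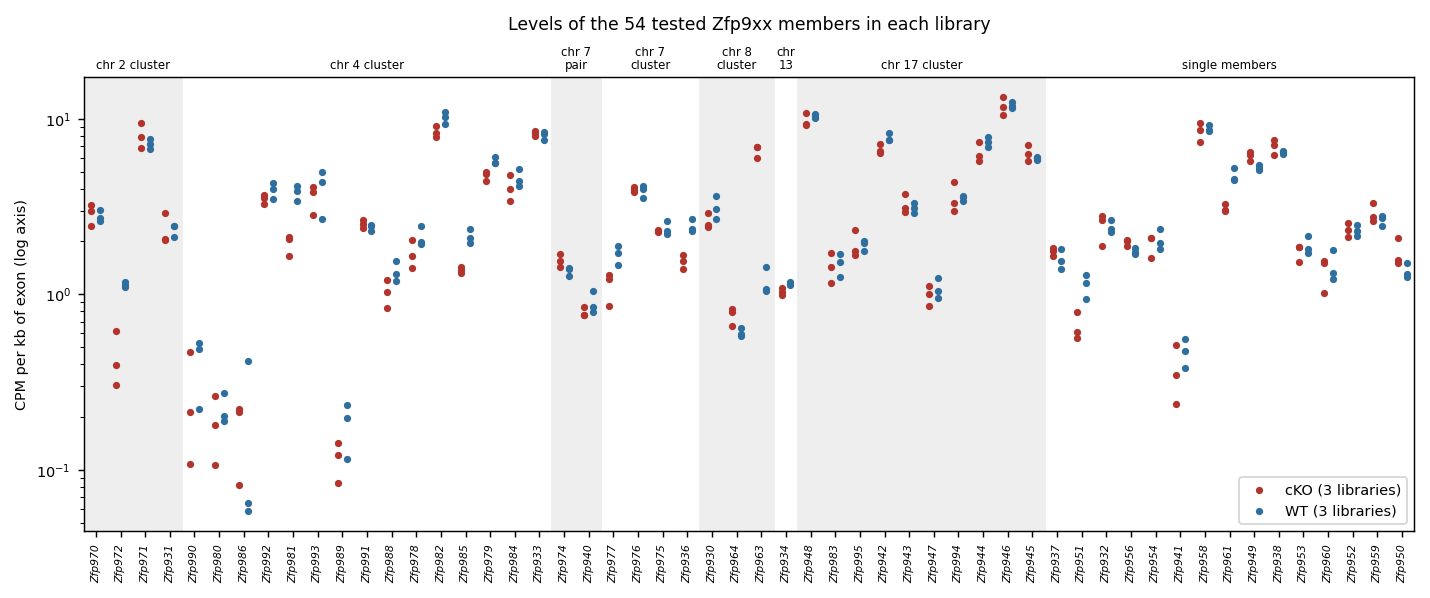
Level of each of the 54 tested members in every library, as CPM per kb of exon on a log axis, cKO left of WT. Zfp963 and the lower members such as Zfp981 and Zfp972 separate by group, while Zfp946 and Zfp948, the highest members, overlap.

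Promoters of this array are shown to compare members that fell with members of the same array that did not pass. Capitals mark the run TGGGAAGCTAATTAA, which 8 of 10 member promoters of the array held, and 12 of 27025 genes in all (0.0444%). The other 4 genes with it were Gm13212, Rex2, Zfp534 and Zfp600. In each array the run given is the longest of at least 12 bases that the most member promoters hold. Of the 8 members with it, 2 fell, and it was absent from the promoters of Zfp933 and Zfp993. The RefSeq start of Zfp981 lies downstream of the start of the gene model that was counted.

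Zfp981 (chr4:146514670-146514969, GRCm38.p6, plus strand): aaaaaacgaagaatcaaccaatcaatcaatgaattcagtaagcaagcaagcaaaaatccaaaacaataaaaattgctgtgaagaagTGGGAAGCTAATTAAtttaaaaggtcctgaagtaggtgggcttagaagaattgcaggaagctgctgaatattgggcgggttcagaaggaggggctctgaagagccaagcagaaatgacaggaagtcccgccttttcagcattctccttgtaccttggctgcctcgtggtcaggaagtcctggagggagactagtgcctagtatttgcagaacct

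Zfp985 (chr4:147553027-147553326, GRCm38.p6, plus strand): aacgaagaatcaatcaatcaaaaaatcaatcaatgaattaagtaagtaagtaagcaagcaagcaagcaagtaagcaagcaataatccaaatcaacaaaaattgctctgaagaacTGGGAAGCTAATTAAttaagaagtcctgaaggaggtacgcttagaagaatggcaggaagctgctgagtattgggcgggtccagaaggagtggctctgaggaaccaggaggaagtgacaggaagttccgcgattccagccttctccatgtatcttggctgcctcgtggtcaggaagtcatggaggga

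Zfp979 (chr4:147642459-147642758, GRCm38.p6, minus strand): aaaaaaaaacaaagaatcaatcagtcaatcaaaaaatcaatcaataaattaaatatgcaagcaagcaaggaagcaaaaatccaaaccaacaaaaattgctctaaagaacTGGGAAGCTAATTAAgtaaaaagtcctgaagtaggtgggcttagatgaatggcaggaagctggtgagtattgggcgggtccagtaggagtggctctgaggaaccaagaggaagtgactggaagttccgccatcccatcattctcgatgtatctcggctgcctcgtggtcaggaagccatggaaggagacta

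Zfp933 (chr4:147848369-147848668, GRCm38.p6, minus strand): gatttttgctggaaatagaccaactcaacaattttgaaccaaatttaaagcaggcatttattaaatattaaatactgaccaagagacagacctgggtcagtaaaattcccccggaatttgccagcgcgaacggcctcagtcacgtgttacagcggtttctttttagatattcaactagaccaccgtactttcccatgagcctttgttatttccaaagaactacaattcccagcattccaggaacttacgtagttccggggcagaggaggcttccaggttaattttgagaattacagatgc

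The run stood in the promoters of Zfp981 and Zfp985, which fell, and of Zfp979, which did not pass. It was missing from that of Zfp933, which was picked for display with its value known. Zfp993, also without it, is not shown and had a log2 fold change of -0.16. The run was chosen by how many members hold it, and its part in the changes was not tested.

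On chromosome 2, from 175372436 to 178078476, 10 members formed an array of which 4 were tested. Zfp972 (chr2:177903340-177925613, minus strand) had 14, 9 and 12 counts in cKO, against 41, 44 and 34 counts in WT. These were 0.533, 0.263 and 0.344 CPM in cKO and 0.976, 1.013 and 0.948 CPM in WT, without overlap. The log2 fold change of -1.38 (SE 0.39) passed by a narrow margin (edgeR adjusted p = 0.0494). It did not pass without cKO replicate 2 (edgeR adjusted p = 0.18), cKO replicate 3 (0.118), WT replicate 1 (0.14), WT replicate 2 (0.177) or WT replicate 3 (0.135). The translated reading frame of Zfp972 held neither a C2H2 finger nor the KRAB pattern.

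The other tested members of the chromosome 2 array lay close to 0. Zfp971 (chr2:178023284-178034022, plus strand), the highest of them, had 20.2, 16.9 and 14.7 CPM in cKO and 15.4, 16.4 and 14.5 CPM in WT. The groups overlapped, and the log2 fold change was 0.16 (SE 0.12, edgeR adjusted p = 0.475), or 0.03 without cKO replicate 1. Zfp970 and Zfp931 had log2 fold changes of 0.05 and -0.01. Summed over the array, levels were 34.5, 28.3 and 25.4 CPM in cKO and 27.9, 28.0 and 27.6 CPM in WT, so that cKO libraries lay on both sides of WT. The promoters of Zfp972 and Zfp971 are shown as a member that fell and one that did not pass, with the run ACTCTAACCCTAAGGGTGGTGCTCATGTCA in capitals.

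Zfp972 (chr2:177925601-177925900, GRCm38.p6, minus strand): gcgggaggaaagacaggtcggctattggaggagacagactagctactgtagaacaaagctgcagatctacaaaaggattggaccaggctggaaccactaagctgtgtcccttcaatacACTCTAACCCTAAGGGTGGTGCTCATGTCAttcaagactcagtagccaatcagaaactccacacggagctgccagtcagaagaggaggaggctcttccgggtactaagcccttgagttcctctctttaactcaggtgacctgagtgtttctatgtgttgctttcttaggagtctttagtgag

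Zfp971 (chr2:178023034-178023333, GRCm38.p6, plus strand): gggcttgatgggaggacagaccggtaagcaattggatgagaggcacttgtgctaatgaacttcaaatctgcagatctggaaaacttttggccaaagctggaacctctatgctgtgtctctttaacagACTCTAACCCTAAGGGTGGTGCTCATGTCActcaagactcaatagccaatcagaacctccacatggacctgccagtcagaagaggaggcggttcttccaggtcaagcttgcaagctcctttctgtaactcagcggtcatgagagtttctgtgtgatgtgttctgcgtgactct

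All 9 members of this array with a promoter held that run, as did 29 of 27025 genes in all (0.107%). It was chosen for being held by the most members, so it could not separate the member that fell from the others.

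Chromosome 7 held an array of 4 members, from 42579783 to 43192109. Of the 4, 3 were below 0 and the median log2 fold change was -0.32. Their summed level was 36.5 ± 1.1 CPM in cKO and 40.4 ± 1.9 CPM in WT (SD, n = 3 each). Zfp936 (chr7:43114229-43192109, plus strand) had 4.53, 5.50 and 5.07 CPM in cKO, against 7.52, 7.67 and 8.84 CPM in WT. The groups did not overlap, and it fell (log2 fold change -0.66, SE 0.13, edgeR adjusted p = 0.0091), though not without WT replicate 3 (edgeR adjusted p = 0.0524). Zfp977, the lowest of the array, had 1.75, 1.23 and 1.83 CPM in cKO and 2.69, 2.44 and 2.09 CPM in WT, also without overlap. Its log2 fold change was -0.59 (SE 0.23) and did not pass (edgeR adjusted p = 0.149). Zfp976, the highest, had 19.05, 19.6 and 20.4 CPM in cKO and 20.6, 19.96 and 17.7 CPM in WT. It overlapped, with a log2 fold change of 0.02 (SE 0.09, edgeR adjusted p = 0.936) whose sign changed without cKO replicate 3, without WT replicate 3 and with scaling by library size alone. All 4 members of the array held the promoter run CATCAGTGCACTCTCACCCTA, present in 5 of 27025 genes (0.0185%). It too was chosen for being held by the most members, so it could not separate Zfp936 from members that did not pass.

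The chromosome 17 array, from 21567046 to 22867134, held 10 members, among them the 2 highest of the group. All 10 were tested and 0 passed in edgeR, DESeq2 or limma-voom, with 1 (Zfp942) at an unadjusted p under 0.05 in edgeR. Zfp942 had a log2 fold change of -0.23 (SE 0.07, edgeR adjusted p = 0.0835), with all cKO libraries lower. Zfp944 overlapped, with a log2 fold change of -0.20 (SE 0.10, edgeR adjusted p = 0.28). Without cKO replicate 1, Zfp942 and Zfp944 fell. The median log2 fold change was -0.05, but it was -0.14 without cKO replicate 1 and above 0 without cKO replicate 3 (0.05) or WT replicate 1 (0.0046), so it had no settled sign. Zfp946 (chr17:22424222-22456689, plus strand) was the highest member of all, at 11.8 ± 1.4 CPM per kb in cKO and 11.95 ± 0.50 CPM per kb in WT (SD, n = 3 each). It had 46.3, 41.0 and 36.7 CPM in cKO and 43.8, 41.6 and 40.3 CPM in WT, so that the groups overlapped. Its log2 fold change was -0.02 (SE 0.08, edgeR adjusted p = 0.916), and it was -0.11 without cKO replicate 1 and above 0 without cKO replicate 3 or WT replicate 1.

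Zfp948 came next in level, at 9.78 ± 0.92 CPM per kb in cKO and 10.3 ± 0.28 CPM per kb in WT (SD, n = 3 each). Its spread in cKO met that of Zfp946, so their order there was within the error, and its log2 fold change was -0.08 (SE 0.08, edgeR adjusted p = 0.608), or -0.17 without cKO replicate 1. Zfp947 was the lowest of the array, with 2.48, 3.19 and 2.895 CPM in cKO and 3.55, 2.99 and 2.73 CPM in WT. Its groups overlapped (log2 fold change -0.11 with an SE of 0.19, edgeR adjusted p = 0.782), and leaving out 1 library moved that value to between -0.20 and -0.0019. The sum over the array was 256.1, 222.8 and 211.7 CPM in cKO and 242.9, 235.9 and 229.4 CPM in WT. The highest of these was cKO replicate 1 and the lowest ones were the other cKO libraries. Promoters of this array had less in common, and no run of that length stood in more than 3 of 10. The longest of these, TGGGCGGGTCTAGGAGA, overlaps the motif GGGCGG and was held by Zfp946, Zfp947 and Zfp994.

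Smaller groups and single genes made up the rest. On chromosome 13, Zfp934 had 5.90, 5.70 and 6.28 CPM in cKO and 6.62, 6.49 and 6.78 CPM in WT (log2 fold change -0.15, edgeR adjusted p = 0.506), and its neighbour Zfp935, whose exon bases all lie in Zfp934 or Gm49359, had no count in any library. The pair Zfp974 and Zfp940 on chromosome 7 had log2 fold changes of 0.19 and -0.18, with edgeR adjusted p-values of 0.315 and 0.535. Of 16 members with no neighbour within 2 Mb, 15 were tested and 2 fell, Zfp961 and Zfp951, around a median log2 fold change of 0.0029.

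Zfp961 (chr8:71951038-71993792, plus strand), on the same chromosome as Zfp963, had 13.1, 14.1 and 12.98 CPM in cKO, against 22.8, 19.6 and 19.3 CPM in WT. The cKO libraries were all low and close together, and the log2 fold change was -0.62 (SE 0.10, edgeR adjusted p = 0.0022). Zfp951 (chr5:104813169-104860070, minus strand) had 3.77, 2.66 and 2.895 CPM in cKO and 5.52, 6.06 and 4.46 CPM in WT, without overlap. Its log2 fold change was -0.79 (SE 0.18, edgeR adjusted p = 0.018), and it did not pass without cKO replicate 2 (adjusted p = 0.0912), WT replicate 1 (0.0798) or WT replicate 2 (0.11) in edgeR. The largest positive value of a member besides Zfp963 was that of Zfp950, at 22.2, 16.7 and 16.1 CPM in cKO and 16.01, 13.4 and 13.9 CPM in WT. All cKO libraries were higher, by the least between cKO replicate 3 and WT replicate 1, and the log2 fold change of 0.34 (SE 0.13) did not pass (edgeR adjusted p = 0.132). Zfp950 was named for its place in the order of changes and Zfp979 for an adjusted p close to the threshold, both after their values were seen.

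**Figure D4:**
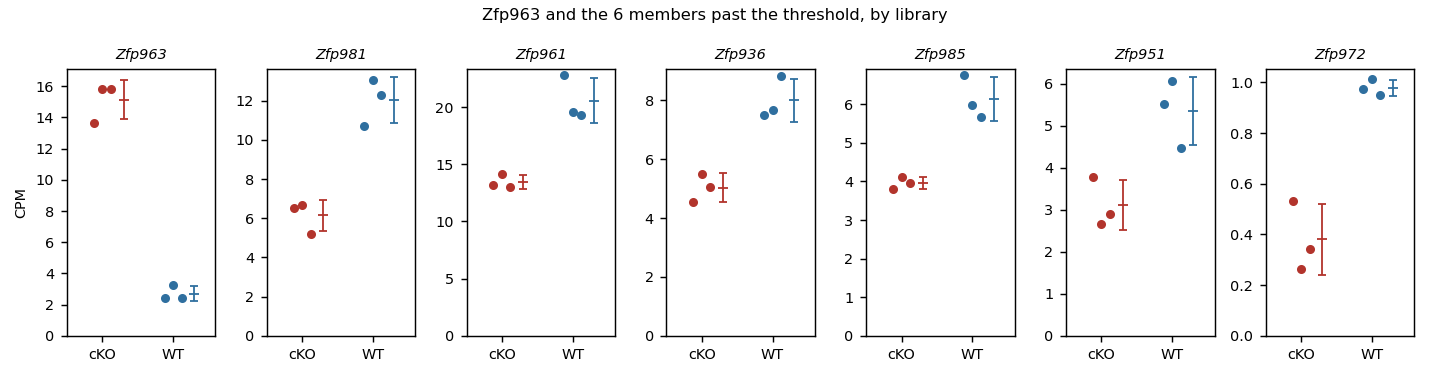
CPM of Zfp963 and of the 6 members that fell, in each cKO and WT library, with the mean and SD of 3 libraries beside the points and every axis starting at 0. Zfp963 is higher in all cKO libraries, and the other 6 are lower in all of them.

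Many members have close copies, and a read that mapped to several places was not counted. For each member, the 50-base stretches of its transcripts that also occur in a transcript of another gene were counted. Of 19 members with at least 50% of stretches shared, 8 were not tested and 1 fell, at a median level of 0.176 CPM per kb. Of 44 members under 50%, 1 was not tested and 5 fell, at a median level of 2.38 CPM per kb. Over the 63 members, Spearman's rho between shared stretches and level was -0.487, as a description of genes that share libraries and ancestry. Some members with many shared stretches had ordinary levels, such as Zfp993 with 86.8% shared at 3.79 CPM per kb. The reads left out are not in the table, so their part in the low levels was not tested. The 4 members with no count in any library were Zfp968, Zfp966, Zfp967 and Zfp935, which shared 95.5%, 89.96%, 100% and 100% of their stretches. For Zfp935, 99.2% were shared with Gm49359, which overlaps its exons at the same place. Zfp969 shared 100% and had 10 counts, all in cKO replicate 3. A count of 0 for these genes is a count of reads placed in 1 position and in 1 gene.

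Among the 6 that fell, the shared stretches amounted to 40.02% for Zfp981, 15.9% for Zfp985, 56.5% for Zfp972, 15.6% for Zfp936, 2.83% for Zfp961 and 1.63% for Zfp951. For Zfp963 the share was 39.4%, of which 38.7% was held by Gm20422, the readthrough gene over its own exons, and not by a copy elsewhere.

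**Figure D5:**
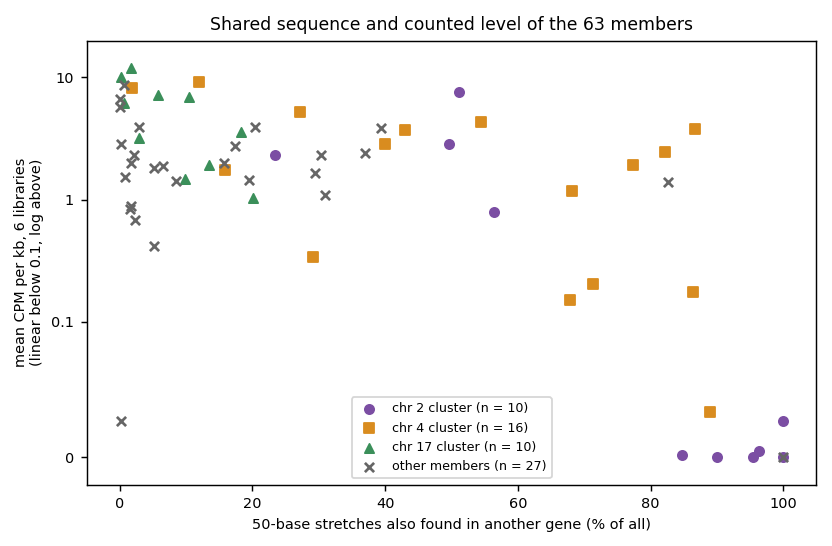
Mean level over the 6 libraries, in CPM per kb (linear below 0.1 and logarithmic above), against the percentage of 50-base stretches of each member also found in another gene. Members of the chromosome 17 array sit at the left, between 1.03 and 11.9 CPM per kb, and the members with nearly all stretches shared sit at the right near 0.

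Factors that act with KRAB zinc finger proteins were measured in the same libraries, from a list of 26 of which 25 were tested. Of these, 6 fell, 1 rose and 18 were not past the threshold, and the median log2 fold change was -0.07. Over all genes tested 4.94% fell and 3.4% rose. Trim28, the corepressor that the KRAB domain binds, had 172, 183 and 208 CPM in cKO and 187, 181 and 190 CPM in WT (log2 fold change 0.01, SE 0.07, edgeR adjusted p = 0.936). Setdb1, the methyltransferase it recruits, had 139, 137 and 128 CPM in cKO and 130, 138 and 132 CPM in WT (log2 fold change 0.02, SE 0.05, edgeR adjusted p = 0.901). Both overlapped between groups. The factors that fell were Atf7ip2, a relative of the SETDB1 partner ATF7IP (log2 fold change -0.60), Dnmt3b, a DNA methyltransferase (-0.38), Mphosph8 and Pphln1, subunits of the HUSH silencing complex (-0.29 and -0.26), Morc3, a nuclear ATPase (-0.27) and Uhrf1, which guides maintenance methylation (-0.26). Their edgeR adjusted p-values ranged between 0.0097 for Mphosph8 and 0.0295 for Uhrf1. Fam208a, another HUSH subunit on the list, did not pass (log2 fold change -0.10, edgeR adjusted p = 0.298). Chd3, a nucleosome remodeller, rose (log2 fold change 0.23, edgeR adjusted p = 0.0165).

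Of 11 tested zinc finger genes with a described role outside the number range, 1 fell, beside 4.94% of all genes tested. It was Zfp42, also known as Rex1, a marker of pluripotent cells, with 1.18, 1.34 and 1.20 CPM in cKO and 3.97, 2.12 and 3.21 CPM in WT (log2 fold change -1.31, SE 0.26, edgeR adjusted p = 0.0088). Zfp57, which protects imprinted methylation, had 26.5, 24.3 and 21.01 CPM in cKO and 19.9, 20.1 and 19.6 CPM in WT, without overlap and without passing (log2 fold change 0.27, edgeR adjusted p = 0.104). Zfp809, which silences proviruses, had 35.3, 36.9 and 37.1 CPM in cKO and 37.6, 37.4 and 39.1 CPM in WT (log2 fold change -0.06, edgeR adjusted p = 0.629).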

How the data were processed

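RNA of 6 whole testis libraries was compared, 3 cKO and 3 WT. Per the file headers, the authors made the deposited raw counts with featureCounts 1.6.4 and the GENCODE M18 annotation, on the strand of each gene, with single reads as the unit and without reads that mapped to several places or lay over several genes. The submitters' processing notes name cutadapt, HISAT2 and GRCm38.p5. Per the labels, total RNA was primed with random and poly(T) primers and depleted of unwanted transcripts, while the molecule field says polyA RNA.

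Symbols and gene types came from GENCODE M21, which named 54165 of 54232 genes, and 57 of the 63 members had the same identifier version in both. The filterByExpr filter (count 10, total 15) kept 20153 genes, and TMM gave the scaling. The main test was the two-sided quasi-likelihood test of edgeR 4.0.16 in R 4.3.3 with genotype alone in the model, with Benjamini-Hochberg adjustment across the genes kept. CPM uses the scaled library sizes, and CPM per kb divides it by the deposited exon length. The olfactory and vomeronasal receptor values were instead divided by the total counts of each library, without scaling. Clusters are runs of members whose starts lie no more than 2 Mb apart. Promoters came from the RefSeq table (GRCm38.p6), where 53 members matched. No pair of libraries was identical, and counting error is included in the fitted errors. The fit was tested on counts simulated with the spread estimated from these libraries, which cannot show how single libraries move the calls. Members, lists and the rule for named genes were chosen with earlier results of these data known. By this rule were named Zfp963, the members that passed, the 10 largest absolute changes and members without counts. The rule also took the highest and lowest member of each array of at least 3, and the 3 highest of all. Of the factors it took Trim28, Setdb1 and those that passed. Other genes, such as Zfp933 and Fam208a, were named outside the rule with their values known. Alternatives were DESeq2 1.42.0, limma-voom (limma 3.58.1), the robust fit, other scalings and filters, a replicate block, leaving out each library, and gaps of 1 and 5 Mb. Figures used matplotlib 3.10.9 in Python 3.11.15.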

Additional observations from a re-analysis of the deposited data

How the results depend on the processing

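Zfp981 and Zfp961 passed in every alternative fit, with adjusted p-values up to 0.0095 and 0.018, and the log2 fold change of Zfp963 lay between 2.40 and 2.64. Leaving out 1 library moved the members that fell (6) to between 3 and 12, all genes that fell (996) to between 387 and 1705, and all genes that rose (685) to between 236 and 1670. The 12 came without cKO replicate 1, where Zfp930, Zfp942, Zfp944, Zfp979, Zfp982 and Zfp990 were added, and the 3 without cKO replicate 2, WT replicate 1 or WT replicate 2, each of which lost Zfp951, Zfp972 and Zfp985. The median log2 fold change of all 54 tested members (-0.09) ranged between -0.16, without cKO replicate 1, and -0.053, without cKO replicate 3, when 1 library was left out. Leaving out 1 library, the log2 fold change of Zfp946 lay between -0.112 and 0.0529 and that of Zfp976 between -0.0439 and 0.0628, so that both changed sign, and with library size alone Zfp976 was at -0.0024. Zfp979 passed with library size alone, at a minimum of 1 CPM in 3 libraries and in DESeq2, while Zfp972 was filtered out at 1 CPM and had no adjusted p in DESeq2. With gaps of 5 Mb, Zfp961 joined the chromosome 8 cluster, whose median moved to 0.03. Except where the construction of the alternative shows it, the cause was not tested. Deviations of same-numbered libraries had correlations of 0.0313, 0.0126 and 0.0652, and those of differently numbered libraries lay between -0.0541 and 0.0225. The labels do not say what a number marks, so the numbers were not taken to pair the libraries. With the replicate block 5 members fell, Zfp972 no longer passing (adjusted p = 0.0678). At this depth members under about 1 CPM carried wide errors.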

Other observations

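Chromosome 8 held members with changes of either sign, Zfp963 and Zfp961, and its genes between 30 and 95 Mb were counted because earlier results of these data had drawn attention to the chromosome. Without Zfp963, 506 genes of this stretch were tested, of which 72 fell (14.2%) and 31 rose (6.13%) in edgeR at an adjusted p under 0.05, beside 4.94% and 3.4% of all genes. Their median log2 fold change was -0.03. Zfp882, a zinc finger gene close to Zfp961, had 12.1, 10.6 and 10.7 CPM in cKO and 10.6, 8.63 and 9.15 CPM in WT, with a log2 fold change of 0.23 that did not pass (edgeR adjusted p = 0.267). The pseudogene Zfp939, left out of the members, had 6.78, 6.29 and 6.13 CPM in cKO and 5.81, 5.57 and 4.85 CPM in WT, all higher in cKO, and did not pass either (log2 fold change 0.24, edgeR adjusted p = 0.308).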
